A study of Mus musculus with 24 samples.

Results

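The genes described here are 9 imprinted genes that act on growth: *H19*, *Peg3*, *Mest*, *Dlk1*, *Meg3*, *Cdkn1c*, *Plagl1*, *Grb10* and *Ndn*. They were taken by symbol from a table of 55291 gene symbols, and all 9 have a row in it. RNA-seq counts were available for 24 libraries of C2C12 cells, an established mouse myoblast line, grown in proliferation medium (the labels call the cells primary myoblasts, the study's methods C2C12). The cells carried a control shRNA (scr) or a shRNA against 1 subunit of a SWI/SNF chromatin remodeling complex. *Baf180* (*Pbrm1*) belongs to the PBAF complex, *Baf250a* (*Arid1a*) to canonical BAF and *Brd9* to non-canonical BAF. Each of these 4 cell lines was grown for 48 h without added metal (NT), with 100 µM CuSO4 or with 50 µM ZnSO4, in 2 biological replicates per condition. All 12 groups, controls included, carried a stably selected shRNA vector. The shRNA that was sequenced is not named in the sources used here, nor is the number of selected populations behind each knockdown (KD).

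Imprinted genes are expressed from only 1 parental copy, which is set by DNA methylation laid down in the germ line. *Peg3*, *Mest*, *Dlk1*, *Plagl1* and *Ndn* are expressed from the paternal copy, and *H19*, *Cdkn1c*, *Meg3* and, in most tissues, *Grb10* from the maternal one. *H19* is a noncoding RNA of embryonic tissue and muscle that shares enhancers with *Igf2*. *Cdkn1c* encodes the cyclin-dependent kinase inhibitor p57, which myoblasts use to leave the cell cycle. *Plagl1* encodes a zinc finger factor that binds promoters of several other imprinted genes, and *Grb10* an adaptor that restrains insulin and IGF receptor signaling. In adult muscle many of these genes are associated with satellite cells and with regeneration.

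Total counts ran from 495778 to 75179394 per library, with a median of 22158430. Replicate 2 of *Baf250a* KD with Zn was the library at 495778, and the next lowest held 12719173. *Plagl1* and *Ndn*, each at 18 counts in replicate 1 of that group, were at 0 in it. The targeted genes were lower in their own lines. Without metal, *Pbrm1* fell by 0.76 on the log2 scale in *Baf180* KD (edgeR adjusted p = 0.00274), *Arid1a* by 1.53 in *Baf250a* KD (edgeR adjusted p = 5.31e-08) and *Brd9* by 0.76 in *Brd9* KD (edgeR adjusted p = 0.00600). Of 8 myoblast markers, all 8 had a mean of at least 1 CPM (counts relative to the scaled library total) in scr, and their summed level was 2960 to 4230 CPM in scr, 2050 to 2290 in *Baf180* KD, 1450 to 1660 in *Baf250a* KD and 2040 to 2410 in *Brd9* KD. Single markers went both ways: without metal 3 were higher and 4 lower in *Baf180* KD, 3 higher and 5 lower in *Baf250a* KD and 2 higher and 5 lower in *Brd9* KD. The 4 markers of fibro-adipogenic cells (*Pdgfra*, *Ly6a*, *Cd34*, *Dpt*) summed to 22.4 to 35.3 CPM in scr and 83.7 to 108 in *Baf180* KD. Their sum was 197 to 213 CPM in *Baf250a* KD and 65.0 to 96.3 in *Brd9* KD. None was at 0 in every library of a line, but *Dpt* averaged 0.157 CPM and was too low to be tested without metal. The sums therefore rest on the other markers. Those of differentiated muscle (7 genes) summed to 68.6 to 97.9 CPM in scr, 94.7 to 142 in *Baf180* KD, 54.0 to 64.8 in *Baf250a* KD and 29.9 to 35.7 in *Brd9* KD. In untreated scr most of this sum was *Acta1* (60.5 CPM). Of the muscle markers tested without metal, 4 were higher and 0 lower in *Baf180* KD, 1 higher and 2 lower in *Baf250a* KD and 0 higher and 4 lower in *Brd9* KD. The 4 endothelial markers summed to 4.08 to 6.05 CPM in scr and at most 2.20 in the KD lines, and 5 adipocyte and 4 macrophage markers to at most 24.8 and 6.14 CPM in any library. In scr only 1 marker of each of these lists averaged at least 1 CPM. These were *Kdr* (4.59 CPM in untreated scr), *Pparg* (16.3) and *Cd68* (5.24), so each sum rests mostly on 1 gene. *Pecam1*, too low to be tested without metal, had 0.139 CPM in untreated scr and 0.151, 0.324 and 0.178 in *Baf180*, *Baf250a* and *Brd9* KD. The myoblast, muscle, fibro-adipogenic and endothelial sums differed between the cell lines compared below, and their part in the results was not tested.

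Positions are those of the mouse genome GRCm38 with GENCODE annotation M21. *H19* is a long noncoding RNA gene at chr7:142575529-142578143 on the minus strand, and *Cdkn1c* lies on the same chromosome at chr7:143458339-143461050, also on the minus strand. *Peg3* (chr7:6703892-6730431, minus strand) starts back to back with *Usp29* (chr7:6730578-6967219, plus strand), and *Ndn* is an intronless gene at chr7:62346569-62350262. *Mest* is at chr6:30723547-30748465, *Plagl1* at chr10:13060504-13131694, *Grb10* at chr11:11930508-12038683, and *Dlk1* and *Meg3* share a domain at chr12:109452823-109463336 and chr12:109541001-109571726. The stretches before 3 of the starts are shown because *Peg3*, *Mest* and *Plagl1* gave the clearest differences between lines. They are RefSeq sequence of GRCm38.p6, cut where an annotated exon of the same gene begins, with CG dinucleotides, the sites of DNA methylation, in capitals.
Peg3-Usp29, between both starts, chr7:6730432-6730577, plus strand: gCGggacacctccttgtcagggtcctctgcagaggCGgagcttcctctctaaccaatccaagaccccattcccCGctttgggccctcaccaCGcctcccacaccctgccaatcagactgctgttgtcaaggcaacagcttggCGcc
Mest, chr6:30737800-30738049, plus strand: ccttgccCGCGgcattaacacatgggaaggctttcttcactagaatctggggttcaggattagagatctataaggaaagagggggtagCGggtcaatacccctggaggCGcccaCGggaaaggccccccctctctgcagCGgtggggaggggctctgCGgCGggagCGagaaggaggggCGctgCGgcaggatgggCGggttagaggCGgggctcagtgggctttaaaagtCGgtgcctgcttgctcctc
Plagl1, chr10:13090582-13090690, plus strand: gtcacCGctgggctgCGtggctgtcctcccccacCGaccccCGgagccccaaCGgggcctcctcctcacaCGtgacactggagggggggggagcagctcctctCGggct

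The *Peg3*-*Usp29* stretch holds 5 CG sites in 146 bases, the *Mest* stretch 14 in 250 and the *Plagl1* stretch 7 in 109. Windows of 300 bases around the starts (250 before, 50 after) were available for 7 of the 9 members. The *Plagl1* window held 26 CG sites, more than 83.1% of 32851 promoter windows, and the *Peg3* window 13 (62.1%). The *Mest* window of the start shown held 17 (68.6%), and that of an upstream *Mest* start 8 (51.4%). The motifs below were searched on both strands of these 11 windows. GGGGCCCC, the core of the PLAGL1 site, was found in the *Peg3* window, outside the stretch printed above, and in 1.08% of all windows. CAGCTG, the E-box that MyoD binds, was found in 1 *Mest* window, upstream of the start shown, and in 16.3% of all windows. The metal response element TGCACNC was found in that *Mest* window and in 12.6% of all windows, and TGCGCNC in windows of *Grb10* and *Meg3* and in 15.4% of all windows. A match says only that these letters are there. No window was available for *H19* and *Cdkn1c*.

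*H19* also hosts a microRNA in its exons, and its mature forms are shown because the host transcript was the most abundant member. The seed, bases 2 to 8, is in capitals.
mmu-miR-675-5p, chr7:142577112-142577133, minus strand: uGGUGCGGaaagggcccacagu
mmu-miR-675-3p, chr7:142577078-142577099, minus strand: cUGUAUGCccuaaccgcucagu

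The libraries counted long RNA, so the mature microRNAs were not measured. The hairpin covers 84 bases of *H19* on the same strand, 3.41% of its exons, and reads over 2 genes of 1 strand were not assigned by the counting. *Mest* and *Cdkn1c* overlap a gene of the opposite strand over 23.1% (*Copg2*) and 30.7% (*Gm44732*) of their exons, and the libraries and counts kept the strand apart.

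The members differed by several orders of magnitude in level. On the scale of CPM per kilobase of exon, *H19* averaged 1550 over the 24 libraries and ranked 11 of 53292 genes, and it took 0.381% of all counts. *Peg3* averaged 32.4 CPM per kilobase (rank 1528), *Mest* 1.18, *Plagl1* 0.550, *Cdkn1c* 0.317, *Ndn* 0.191 and *Grb10* 0.0490. *Meg3* had 7 counts in all 24 libraries together and *Dlk1* had 0. At this depth a count of 0 allows *Dlk1* at most 0.00531 CPM over all libraries, where 3 counts are taken as the limit of a count of 0. *Dlk1*, a Notch ligand-like growth factor, and *Meg3*, the noncoding RNA of the same domain, were therefore not detectable or near that limit in every line and treatment, and neither passed the filter on low counts in any comparison. *H19* was read with 2712 counts or more in every library, *Peg3* with 118 in the shallow library and at least 4189 in the rest, *Plagl1* with at most 343, *Mest* with at most 454, and *Cdkn1c*, *Grb10* and *Ndn* with at most 49.

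**Figure D1:**
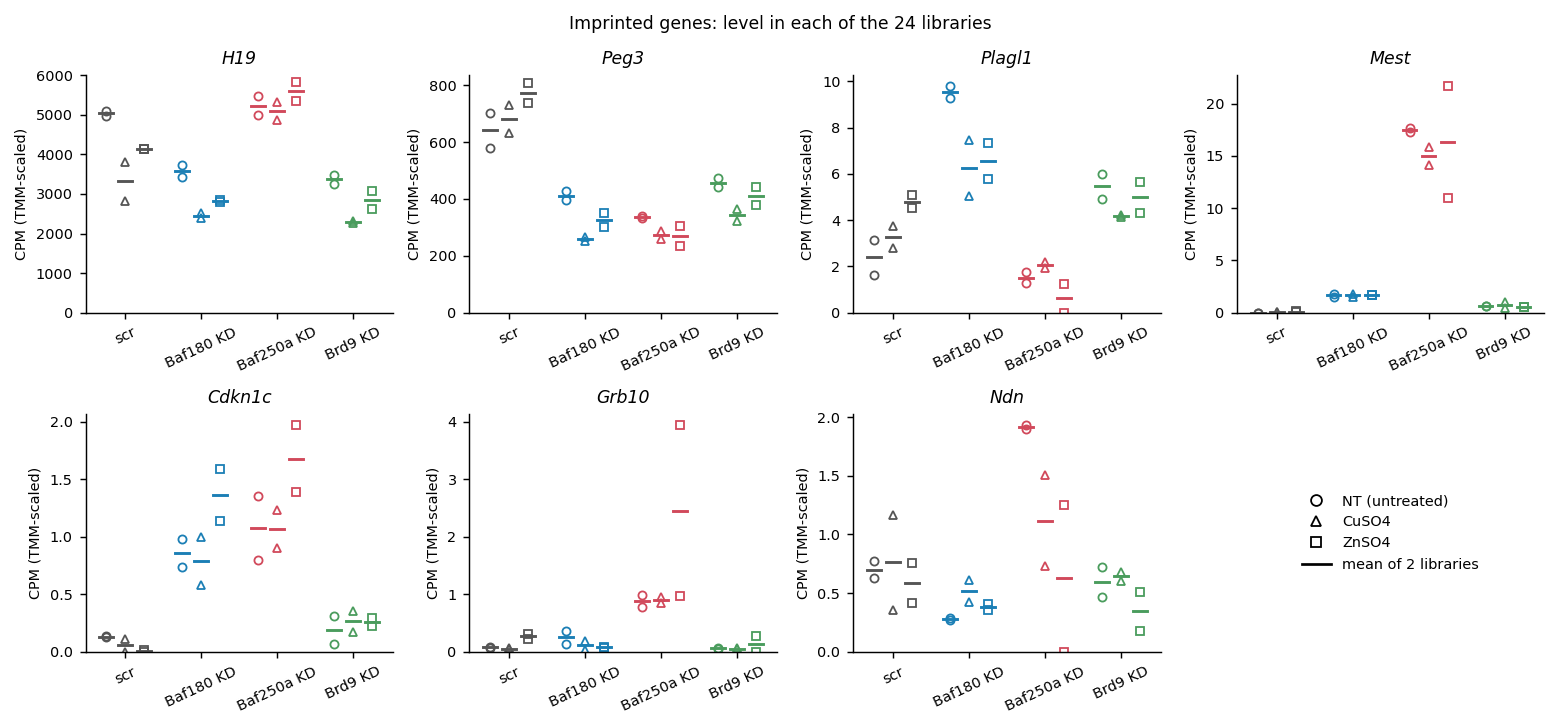
Level of 7 members in each library, in TMM-scaled CPM on linear axes that start at 0, with each panel on its own scale. Points are single libraries (2 per group), the shape gives the treatment, the colour the cell line and the short line the group mean; *Peg3* is lower and *Mest* higher in every KD library than in every scr library, and the pair of *Baf250a* KD Zn points of *Mest*, *Grb10* and *Ndn* spreads, 1 of each pair being the shallow library.

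Without metal, 5 members changed in *Baf180* KD against scr: *Mest*, *Cdkn1c* and *Plagl1* were higher and *H19* and *Peg3* lower. In *Baf250a* KD 5 changed, and *Mest*, *Cdkn1c*, *Grb10* and *Ndn* were higher and *Peg3* was lower. In *Brd9* KD 4 changed, and *Mest* and *Plagl1* were higher and *H19* and *Peg3* lower. These are 5 of 6 members tested in *Baf180* KD, 5 of 7 in *Baf250a* KD and 4 of 5 in *Brd9* KD, at an edgeR quasi-likelihood adjusted p under 0.05. The same call was made for 41.0%, 57.8% and 29.2% of all genes tested in these lines. *Mest*, *Cdkn1c* and *Grb10* passed the filter on low counts through the KD libraries, where they are high. The tests of these genes against scr, the counts of members called and the medians of the members tested are therefore a description and not support. The median log2 fold change of the members tested was 0.76, 1.40 and -0.21 in the 3 lines, beside 0.03, 0.00 and 0.01 over all genes tested. The 3 comparisons share the 2 scr libraries. In the metal-treated KD lines the counts of members called were 4 of 6 tested (*Baf180* KD), 5 of 7 (*Baf250a* KD) and 2 of 5 (*Brd9* KD) with Cu, where 24.9%, 41.2% and 12.2% of all genes tested were called. With Zn they were 4 of 6, 6 of 7 and 3 of 5, where 49.9%, 57.5% and 23.2% of all genes were called. Without the shallow library the count in *Baf250a* KD with Zn was also 6. Between KD lines, with treatment as a covariate over all 24 libraries, 5 of 7 members tested differed between *Baf180* and *Baf250a* KD, 4 of 7 between *Baf180* and *Brd9* KD, and 7 of 7 between *Baf250a* and *Brd9* KD. All genes were called at 40.6%, 29.7% and 49.8% in these comparisons. In cell populations such as these, fewer expressing cells and less RNA per cell cannot be told apart.

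*Peg3*, a zinc finger gene of muscle stem cells and mesodermal tissue, was the only member lower in all KD lines under every treatment. Untreated scr libraries had 703 and 580 CPM. *Baf180* KD had 395 and 429 CPM, *Baf250a* KD 334 and 339, and *Brd9* KD 440 and 473. No KD library reached the lower scr library. *Peg3* fell by 0.65 (SE 0.12) on the log2 scale in *Baf180* KD (edgeR adjusted p = 0.00149), by 0.96 (SE 0.11) in *Baf250a* KD (edgeR adjusted p = 1.08e-05) and by 0.48 (SE 0.12) in *Brd9* KD (edgeR adjusted p = 0.0192). The call in *Brd9* KD was lost without either of its libraries (edgeR adjusted p = 0.110 and 0.0717).

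With metal the scr libraries had 631 and 729 CPM of *Peg3* with Cu and 737 and 809 with Zn, and neither passed the test against untreated scr (edgeR adjusted p = 0.850 and 0.173). *Baf180* KD had 252 and 267 CPM with Cu and 302 and 351 with Zn. *Baf250a* KD had 286 and 258 CPM with Cu and 305 and 233 with Zn, and *Brd9* KD 366 and 321 with Cu and 377 and 443 with Zn. The gap to scr was called in all 9 comparisons of a KD with scr at the same treatment. Its log2 fold change reached -1.40 (SE 0.14) in *Baf180* KD with Cu and -1.42 (SE 0.14) in *Baf250a* KD with Zn, and the smallest was the untreated *Brd9* KD. Over all treatments the 6 libraries of each KD lay at 252 to 429 CPM, 233 to 339 CPM and 321 to 473 CPM, all under the 580 to 809 CPM of the 6 scr libraries. The *Brd9* call with Cu was lost without its replicate 2 (log2 fold change -0.93, edgeR adjusted p = 0.0862).

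The neighbours of *Peg3* did not all follow it. *Usp29*, the paternally expressed gene whose RefSeq start lies 164 bases from that of *Peg3*, had 14.8 and 13.8 CPM in untreated scr and 6.63 and 6.26 in *Baf180* KD. It had 4.27 and 5.98 CPM in *Baf250a* KD and 10.8 and 11.9 in *Brd9* KD. *Usp29* fell by 1.16 (SE 0.16) in *Baf180* KD (edgeR adjusted p = 2.17e-04) and by 1.52 (SE 0.19) in *Baf250a* KD (edgeR adjusted p = 2.17e-05). In untreated *Brd9* KD its log2 fold change of -0.32 (SE 0.15) did not pass (edgeR adjusted p = 0.146), although both libraries were under both scr libraries, and it passed there with Cu (-0.83, SE 0.16, edgeR adjusted p = 0.0144) and Zn (-0.68, SE 0.12, edgeR adjusted p = 0.00474). *Zim1*, a zinc finger gene of the same domain that is maternally expressed, moved the other way. Its level without metal was 9.31 ± 0.108 CPM (SD, n = 2) in scr, 20.3 ± 4.92 in *Baf180* KD, 28.2 ± 4.21 in *Baf250a* KD and 15.3 ± 1.52 in *Brd9* KD. *Zim1* rose by 1.12 (SE 0.19, edgeR adjusted p = 7.51e-04), 1.57 (SE 0.15, edgeR adjusted p = 2.05e-06) and 0.73 (SE 0.16, edgeR adjusted p = 0.0136) in these lines.

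**Figure D2:**
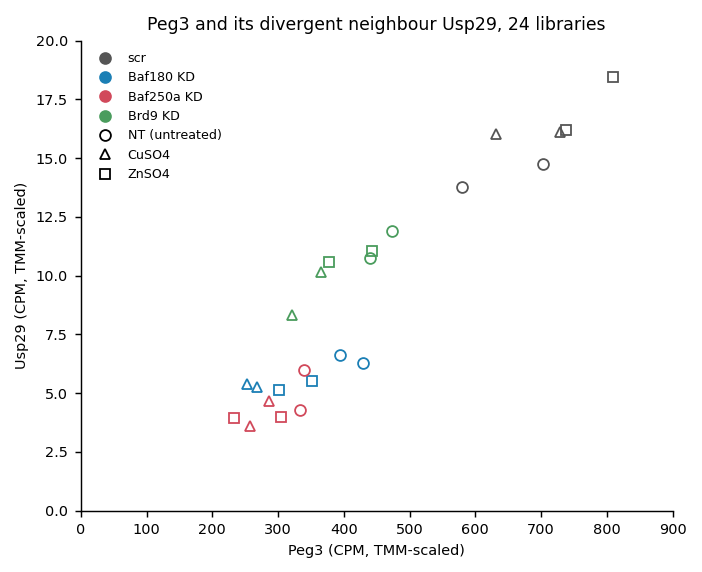
*Peg3* against *Usp29* in the 24 libraries, both in TMM-scaled CPM on linear axes, with the line by colour and the treatment by shape. The 6 scr libraries are at the upper right (580 to 809 CPM of *Peg3*, 13.8 to 18.5 of *Usp29*), *Brd9* KD lies between (8.32 to 11.9 CPM of *Usp29*), and *Baf180* and *Baf250a* KD are at the lower left (3.61 to 6.63 CPM of *Usp29*).

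*H19* was lower in the *Baf180* and *Brd9* KD lines than in the *Baf250a* KD line. Untreated scr libraries had 4971 and 5112 CPM, *Baf180* KD 3728 and 3425, *Baf250a* KD 5468 and 4995, and *Brd9* KD 3479 and 3259. *Baf180* and *Brd9* KD libraries were all under the scr libraries, while 1 library of *Baf250a* KD was above both scr libraries and the other between them. *H19* fell by 0.51 (SE 0.13) in *Baf180* KD (edgeR adjusted p = 0.00776) and by 0.57 (SE 0.10) in *Brd9* KD (edgeR adjusted p = 0.00522). In *Baf250a* KD its log2 fold change was 0.02 (SE 0.10, edgeR adjusted p = 0.864).

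With Zn the scr libraries had 4141 and 4144 CPM of *H19*, *Baf180* KD 2841 and 2806, *Brd9* KD 3085 and 2620, and *Baf250a* KD 5844 and 5347. The log2 fold changes were -0.57 (SE 0.07, edgeR adjusted p = 2.67e-04) in *Baf180* KD, -0.52 (SE 0.09, edgeR adjusted p = 0.00542) in *Brd9* KD and 0.48 (SE 0.13, edgeR adjusted p = 8.32e-04) in *Baf250a* KD. The last call was lost with a correction for GC content and gene length (0.19, edgeR adjusted p = 0.180) and without either scr library (edgeR adjusted p = 0.186 and 0.218). That of *Brd9* KD was also lost without either scr library (edgeR adjusted p = 0.0714 and 0.0794). With Cu the scr libraries themselves spread from 3821 to 2823 CPM. Against them *Baf250a* KD, at 5318 and 4869 CPM, was higher by 0.64 (SE 0.21, edgeR adjusted p = 0.0393), a call lost without either of its own libraries (edgeR adjusted p = 0.311 and 0.214). *Baf180* KD (2394 and 2514 CPM) and *Brd9* KD (2305 and 2275 CPM) were both under both scr libraries with Cu, at -0.45 (SE 0.20, edgeR adjusted p = 0.138) and -0.56 (SE 0.19, edgeR adjusted p = 0.111).

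Set against each other, with treatment as a covariate over all 24 libraries, *H19* was 1.83-fold lower in *Baf180* than in *Baf250a* KD (log2 fold change -0.87, SE 0.09, edgeR adjusted p = 2.44e-08). It was 1.89-fold higher in *Baf250a* than in *Brd9* KD (0.92, SE 0.09, edgeR adjusted p = 4.76e-09). *Baf180* and *Brd9* KD differed by 0.05 (SE 0.09, edgeR adjusted p = 0.724).

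*Igf2*, the growth factor that shares enhancers with *H19*, is shown here after its values were seen, since its mean of 0.840 CPM is under the level set for naming a neighbour. Untreated scr libraries had 0 and 1 counts of it. *Baf250a* KD had 65 and 55 counts (2.52 and 2.59 CPM), *Baf180* KD 6 and 6, and *Brd9* KD 2 and 1. The ratio of *Baf250a* KD to scr was 96.9 (edgeR adjusted p = 5.57e-06). Its exact 95% interval of 17.1 to 3860 covers counting error only. Against scr, *Igf2* passed the filter on low counts only in *Baf250a* KD, where it is high. The test of *Igf2* is therefore a description and not support. The ratio of *Baf180* KD was 9.78 (interval 1.45 to 418), and *Brd9* KD was at or under the limit of a count of 0. In *Baf250a* KD *Igf2* had 46 and 34 counts with Cu and 16 and 4 with Zn, against 1 in each scr pair. A predicted gene on the same strand covers 62.8% of the *Igf2* exons, so its counts may leave out part of its reads.

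*Mest*, a paternally expressed gene of mesodermal tissue, was close to silent in scr and graded across the KD lines. It had no count in either untreated scr library, 40 and 37 counts in *Baf180* KD (1.79 and 1.52 CPM), 454 and 367 in *Baf250a* KD (17.6 and 17.3 CPM) and 12 and 9 in *Brd9* KD (0.620 and 0.601 CPM). Against the limit of 3 counts over the scr group, *Mest* was at least 20.9-fold higher in *Baf180* KD, at least 221-fold in *Baf250a* KD and at least 7.75-fold in *Brd9* KD. All 3 were called (edgeR adjusted p = 1.06e-04, 2.52e-09 and 0.00705). *Mest* passed the filter through the KD libraries, where it is high, so its tests against scr are a description and not support. Without either *Brd9* KD library *Mest* no longer passed the filter on low counts there, and DESeq2 gave it no adjusted p in *Brd9* KD without metal or with Cu.

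The scr libraries had 1 and 2 counts of *Mest* with Cu and 1 and 8 with Zn. Over the 6 libraries of each line its level was 0 to 0.105 CPM in scr, 0.430 to 0.994 in *Brd9* KD, 1.52 to 1.81 in *Baf180* KD and 10.9 to 21.7 in *Baf250a* KD, so that no library of 1 line overlapped with another line. All 9 comparisons with scr at the same treatment were called, those of *Brd9* KD with metal on 12 to 23 counts with Cu and 7 to 11 with Zn. Both of these were lost without some single libraries, with Cu without either *Brd9* library or scr replicate 2 (edgeR adjusted p = 0.297, 0.0502 and 0.0816) and with Zn without either scr library (edgeR adjusted p = 0.164 and 0.0981) and in DESeq2 (adjusted p = 0.114). Between KD lines, *Mest* was 9.12-fold lower in *Baf180* than in *Baf250a* KD (log2 fold change -3.19, SE 0.18, edgeR adjusted p = 2.89e-13). It was 24.8-fold higher in *Baf250a* than in *Brd9* KD (4.63, SE 0.20, edgeR adjusted p = 8.93e-16) and 2.72-fold higher in *Baf180* than in *Brd9* KD (1.44, SE 0.22, edgeR adjusted p = 1.30e-05).

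*Cdkn1c* was detected at a low level and was highest in *Baf180* and *Baf250a* KD. Untreated scr libraries had 2 and 3 counts, *Baf180* KD 22 and 18 (0.986 and 0.741 CPM), *Baf250a* KD 35 and 17 (1.36 and 0.801 CPM) and *Brd9* KD 6 and 1. Both *Baf180* and *Baf250a* KD libraries were above both scr libraries, while *Brd9* KD lay on both sides. *Cdkn1c* rose by 2.64 (SE 0.60) in *Baf180* KD (edgeR adjusted p = 0.00452) and by 2.97 (SE 0.60) in *Baf250a* KD (edgeR adjusted p = 0.00102), and it did not pass the filter in *Brd9* KD. Its tests against scr are a description and not support. The call in *Baf180* KD was lost in DESeq2 (adjusted p = 0.0550) and without its replicate 1 (edgeR adjusted p = 0.0610).

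With Cu, *Cdkn1c* had 26 and 19 counts in *Baf180* KD and 27 and 15 in *Baf250a* KD against 0 and 5 in scr, and it was called in both (log2 fold change 3.25, edgeR adjusted p = 0.0107, and 3.74, edgeR adjusted p = 0.00462). The *Baf180* call was lost without either of its libraries (edgeR adjusted p = 0.150 and 0.0538) and the *Baf250a* call without its replicate 1 (edgeR adjusted p = 0.0539). With Zn it had 22 and 25 counts in *Baf180* KD and 20 and 1 in *Baf250a* KD against 0 and 1 in scr. These are ratios of 134 (exact 95% interval 23.0 to 5420) and 145 (interval 23.3 to 5980), and without *Baf250a* KD replicate 1 it did not pass the filter. *Brd9* KD had 5 and 4 counts with Zn, a ratio of 25.7 (interval 3.56 to 1130). *Cdkn1c* did not pass the filter there, and it was called with all 24 libraries in the fit (edgeR adjusted p = 0.00550). It was 3.88-fold higher in *Baf180* than in *Brd9* KD (edgeR adjusted p = 2.61e-04) and 4.67-fold higher in *Baf250a* than in *Brd9* KD (edgeR adjusted p = 3.29e-05). *Baf180* and *Baf250a* KD differed by -0.27 on the log2 scale (SE 0.32, edgeR adjusted p = 0.547).

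*Plagl1* was higher in *Baf180* than in *Baf250a* KD at every treatment. At no treatment was it called both higher in *Baf180* KD and lower in *Baf250a* KD against scr. Untreated scr libraries had 3.13 and 1.64 CPM, *Baf180* KD 9.28 and 9.80, *Brd9* KD 4.91 and 6.01, and *Baf250a* KD 1.28 and 1.74. *Baf180* and *Brd9* KD libraries were above both scr libraries, and those of *Baf250a* KD overlapped with them. *Plagl1* rose by 2.03 (SE 0.27) in *Baf180* KD (edgeR adjusted p = 1.49e-04) and by 1.24 (SE 0.33) in *Brd9* KD (edgeR adjusted p = 0.0250), and its log2 fold change in *Baf250a* KD was -0.67 (SE 0.37, edgeR adjusted p = 0.143). The call in *Brd9* KD was lost without either of its libraries (edgeR adjusted p = 0.0586 and 0.156) and without scr replicate 2 (0.80, edgeR adjusted p = 0.0868).

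With Cu the log2 fold change in *Baf180* KD was 0.90 (SE 0.27, edgeR adjusted p = 0.0323), lost without either *Baf180* library or scr replicate 1 (edgeR adjusted p = 0.0536, 0.390 and 0.0742) and in DESeq2 (adjusted p = 0.0528). With Zn it was 0.47 (SE 0.18, edgeR adjusted p = 0.0538). In *Baf250a* KD with Zn *Plagl1* had 18 counts in replicate 1 (1.25 CPM) and 0 in the shallow replicate 2, against 134 and 343 counts (5.08 and 4.51 CPM) in scr. Its log2 fold change was -1.95 (SE 0.37, edgeR adjusted p = 8.57e-06) and -1.912 without the shallow library, and the call was lost in DESeq2 (adjusted p = 0.146), without *Baf250a* KD replicate 1 (edgeR adjusted p = 0.113) and without scr replicate 1 (edgeR adjusted p = 0.0550). Over all treatments *Plagl1* was 4.41-fold higher in *Baf180* than in *Baf250a* KD (log2 fold change 2.14, SE 0.24, edgeR adjusted p = 7.71e-08), 2.87-fold lower in *Baf250a* than in *Brd9* KD (-1.52, SE 0.24, edgeR adjusted p = 1.06e-05) and 1.54-fold higher in *Baf180* than in *Brd9* KD (0.62, SE 0.20, edgeR adjusted p = 0.0220).

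*Grb10* and *Ndn* had 0 to 49 counts per library. *Grb10* had 1 and 2 counts in untreated scr, 20 and 21 in *Baf250a* KD (0.776 and 0.989 CPM), 3 and 9 in *Baf180* KD and 1 and 1 in *Brd9* KD. Its ratio in *Baf250a* KD to scr was 11.0 (exact 95% interval 3.52 to 55.7, edgeR adjusted p = 8.02e-04) without metal and 18.7 (interval 5.90 to 95.1, edgeR adjusted p = 0.00174) with Cu, on 21 and 14 counts. With Zn scr itself had 6 and 24 counts, *Baf250a* KD 14 and 2, and the call (1.95 on the log2 scale, SE 0.60, edgeR adjusted p = 0.00443) was lost without *Baf250a* KD replicate 1 or either scr library (edgeR adjusted p = 0.128, 0.391 and 0.284) and in DESeq2 (2.74, adjusted p = 0.160). Against scr, *Grb10* did not pass the filter in the other lines, so its tests against scr are a description and not support. *Ndn*, which encodes necdin, a growth-restraining protein of neurons and muscle precursors, had 10 and 17 counts in untreated scr, 49 and 41 in *Baf250a* KD (1.90 and 1.93 CPM), 6 and 7 in *Baf180* KD and 14 and 7 in *Brd9* KD. It rose by 1.40 (SE 0.38) in *Baf250a* KD (edgeR adjusted p = 0.00656), a call lost in DESeq2 (adjusted p = 0.0573) and without *Baf250a* KD replicate 1 (edgeR adjusted p = 0.0505). In *Baf180* KD its log2 fold change was -1.33 (SE 0.52, edgeR adjusted p = 0.0595), with both libraries under both scr libraries. With metal *Ndn* passed in no line against scr, where its edgeR adjusted p ranged from 0.0593 to 0.938.

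**Figure D3:**
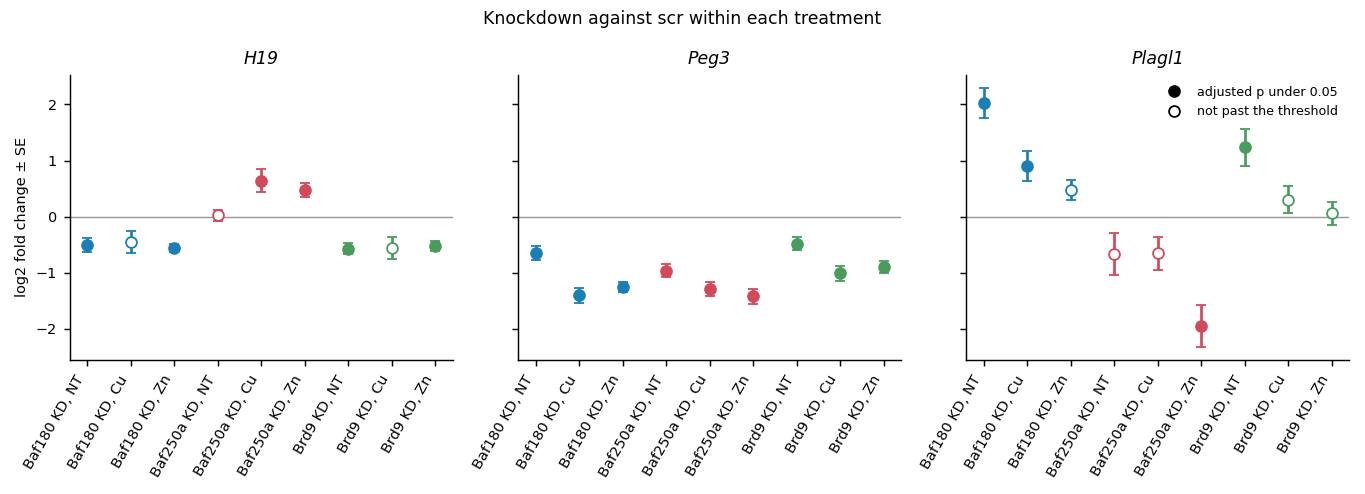
log2 fold change (± SE) of each KD against scr at the same treatment, for *H19*, *Peg3* and *Plagl1*. Filled points passed an edgeR adjusted p under 0.05: *Peg3* is under 0 in all 9 comparisons, *H19* is under 0 in *Baf180* and *Brd9* KD and at or above 0 in *Baf250a* KD, and *Plagl1* is above 0 in *Baf180* KD and under 0 in *Baf250a* KD.

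*Ndn* was 3.44-fold lower in *Baf180* than in *Baf250a* KD (edgeR adjusted p = 1.06e-04) and *Grb10* 6.20-fold lower (edgeR adjusted p = 2.21e-05). Both were also higher in *Baf250a* than in *Brd9* KD, *Ndn* 2.62-fold (edgeR adjusted p = 8.83e-04) and *Grb10* 10.8-fold (edgeR adjusted p = 2.12e-06).

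*Peg3* placed *Baf180* and *Baf250a* KD closest together, with a log2 difference of 0.16 (SE 0.10, edgeR adjusted p = 0.210). It was higher in *Brd9* KD than in both of them (1.22-fold against *Baf180* KD, edgeR adjusted p = 0.0216, and 1.37-fold against *Baf250a* KD, edgeR adjusted p = 3.78e-04). The difference of *Peg3* between *Baf180* and *Brd9* KD was lost without any 1 of 5 libraries (edgeR adjusted p = 0.0530 to 0.0681), and that of *Plagl1* without any 1 of 4 (edgeR adjusted p = 0.0515 to 0.0620). On the untreated libraries alone the difference of *Peg3* between *Baf180* and *Brd9* KD was not called (-0.17, edgeR adjusted p = 0.277), nor that of *Cdkn1c* (2.05, edgeR adjusted p = 0.0576).

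Copper and zinc moved few of the members within a line. With Cu, *H19* went from 3728 and 3425 to 2394 and 2514 CPM in *Baf180* KD and from 3479 and 3259 to 2305 and 2275 CPM in *Brd9* KD, and in both lines the treated libraries were under the untreated ones. *H19* fell by 0.58 (SE 0.10) in *Baf180* KD (edgeR adjusted p = 0.0115) and by 0.64 (SE 0.09) in *Brd9* KD (edgeR adjusted p = 0.0303). In scr it went from 4971 and 5112 to 3821 and 2823 CPM, a change of -0.61 on the log2 scale (SE 0.15) that did not pass (edgeR adjusted p = 0.447), where 0.0333% of all genes were called. In *Baf250a* KD, with 5468 and 4995 CPM untreated and 5318 and 4869 with Cu, it was -0.03 (SE 0.11, edgeR adjusted p = 0.966). None of the 6 tests of a difference between a KD's response and that of scr was called for *H19*, and its Cu response in *Baf250a* KD minus scr was 0.59 (SE 0.18, edgeR adjusted p = 0.460).

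*Peg3* fell with Cu by 0.70 (SE 0.10) in *Baf180* KD (edgeR adjusted p = 0.00625), from 395 and 429 to 252 and 267 CPM. With *H19* this makes 2 of 5 members tested in *Baf180* KD with Cu, where 13.8% of all genes were called, and 1 of 5 in *Brd9* KD with Cu, where 0.274% were. Both calls in *Baf180* KD were lost without its Cu replicate 1 (edgeR adjusted p = 0.0884 for *H19* and 0.0549 for *Peg3*) or its untreated replicate 2 (0.0712 and 0.0629), and that of *H19* in *Brd9* KD without any of its 4 untreated or Cu libraries (edgeR adjusted p = 0.145 to 0.256). With Zn, 1 of 7 members tested was called in *Baf250a* KD, beside 15.9% of all genes. It was *Mest*, with 454 and 367 counts untreated and 157 and 11 with Zn, that is 17.6 and 17.3 against 10.9 and 21.7 CPM. The fitted fall of 0.59 (SE 0.18, edgeR adjusted p = 0.0268) was 0.68 without the shallow library and turned to 0.32 higher without the deep one (edgeR adjusted p = 0.794). It was also lost without either untreated library (edgeR adjusted p = 0.0604 and 0.0761) and with all 24 libraries in the fit (edgeR adjusted p = 0.260), and DESeq2 gave no adjusted p for it.

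No member was called by edgeR in the other 5 metal comparisons. These were Zn in *Baf180* KD, where 0.0197% of all genes were called, Cu in *Baf250a* KD (1.27%), Zn in *Brd9* KD (0.0334%), and Cu and Zn in scr (0.0333% and 17.6%). At an unadjusted edgeR p under 0.05 they held 3, 2, 1, 1 and 1 members. Of all genes tested, 1999 of 15241, 1530 of 14706, 451 of 14978, 1559 of 15002 and 5287 of 15002 were under it. DESeq2 called 1, 0, 0, 1 and 1 members, and its share of all genes is not given here. Same-numbered libraries of *Baf180* KD deviated together (correlations of 0.167, 0.562 and 0.316 between its 3 treatments), although no source used here ties the numbers to a shared batch. With replicate number as a block, 2 members were called with Zn in *Baf180* KD, *H19* (-0.35, edgeR adjusted p = 0.0231) and *Peg3* (-0.35, edgeR adjusted p = 0.0217), and with Cu *Plagl1* was called as well (-0.65, edgeR adjusted p = 0.00687). *Plagl1* in scr went from 3.13 and 1.64 CPM untreated to 5.08 and 4.51 with Zn, both above the untreated libraries, which is 1.05 higher on the log2 scale (SE 0.33, edgeR adjusted p = 0.0634).

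**Figure D4:**
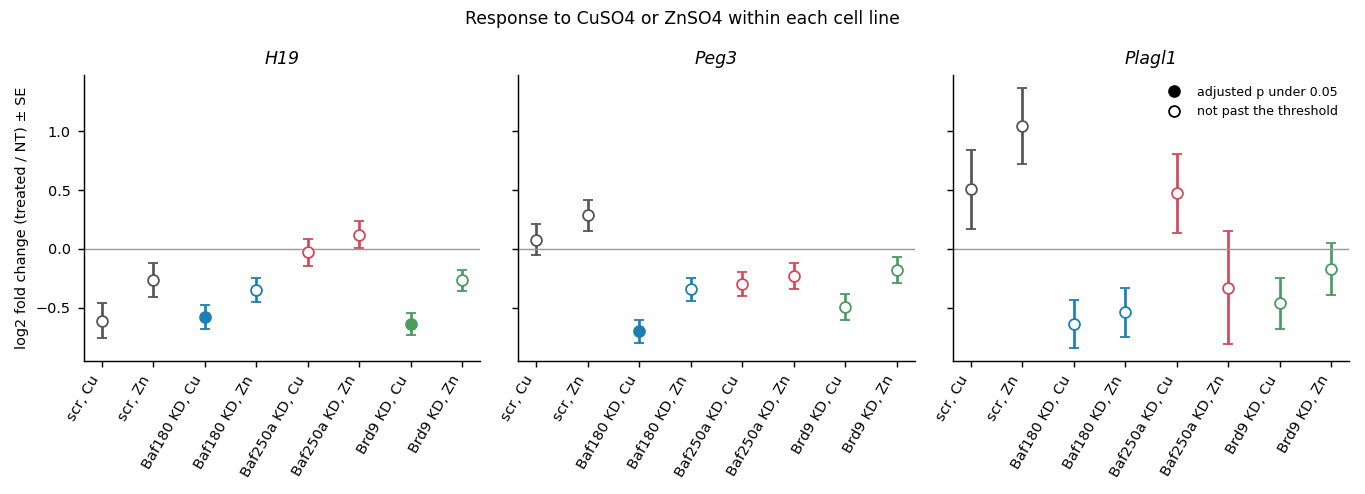
log2 fold change (± SE) of Cu- or Zn-treated against untreated libraries within each cell line, for *H19*, *Peg3* and *Plagl1*; filled points passed an edgeR adjusted p under 0.05. The called responses are *H19* and *Peg3* with Cu in *Baf180* KD and *H19* with Cu in *Brd9* KD, while *Peg3* and *Plagl1* point upward in scr and downward in *Baf180* and *Brd9* KD.

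The response itself was compared between each KD and scr over all 24 libraries. In *Baf180* KD the response to Cu differed from that of scr for 2 of 7 members (12.8% of all genes), and the response to Zn for 3 of 7 (28.7%). The response to Zn in *Baf250a* KD differed for 2 of 7 (30.5%). edgeR called no member in the other 3 tests, which were Cu in *Baf250a* KD (0.0121% of all genes), Cu in *Brd9* KD (0.0363%) and Zn in *Brd9* KD (11.1%). At an unadjusted edgeR p under 0.05 these held 1, 2 and 4 members, beside 1274, 2759 and 4953 of the 16524 genes tested. DESeq2 called 1, 0 and 0 members, and its share of all genes is not given here. The response of *Peg3* in *Baf180* KD was lower than that of scr by 0.73 (SE 0.17) with Cu (edgeR adjusted p = 0.0137) and by 0.53 (SE 0.17) with Zn (edgeR adjusted p = 0.0270). *Plagl1*, which went from 2.38 to 3.28 and 4.79 CPM in the group means of scr and from 9.54 to 6.27 and 6.54 CPM in those of *Baf180* KD, differed in response by -1.11 (SE 0.36, edgeR adjusted p = 0.0494) with Cu and -1.49 (SE 0.36, edgeR adjusted p = 0.00486) with Zn. The *Cdkn1c* and *Mest* differences rest on scr groups of 0 to 8 counts a library, so their fitted sizes depend on the prior count and are no bounds. These were a *Cdkn1c* response to Zn higher than that of scr by 3.89 (SE 1.23, edgeR adjusted p = 0.0228) in *Baf180* KD and by 3.65 (SE 1.26, edgeR adjusted p = 0.0329) in *Baf250a* KD, and a *Mest* response to Zn that differed by -4.58 (SE 1.62, edgeR adjusted p = 0.0380) in *Baf250a* KD. Libraries differed in how level, relative to the mean of all libraries, followed GC content. The slope in log2 CPM per 10 points of GC was 0.095 and 0.334 in untreated scr and -0.269 and -0.353 in scr with Zn. With a correction for GC content and gene length fewer of these differences were called, as given in the closing section. Each of the 7 calls reported here was lost without some single libraries. Without scr untreated replicate 2 none of the 7 was kept, at an edgeR adjusted p of 0.137 and 0.162 for *Peg3*, 0.380 and 0.0637 for *Plagl1*, 0.138 and 0.145 for *Cdkn1c* and 0.189 for *Mest*.

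Genes that lie in the same imprinted domains were read from a list of 31, of which 29 have a row and 11 to 14 passed the filter in the untreated comparisons. In *Baf180* KD 5 were higher, 3 lower and 3 did not pass the test; in *Baf250a* KD 9 were higher, 2 lower and 3 did not pass; in *Brd9* KD 4 were higher, 0 lower and 7 did not pass. Of all genes 41.0%, 57.8% and 29.2% were called in these lines without metal. With Zn 3 neighbours were higher and 4 lower in *Baf180* KD (median -0.26), 5 and 3 in *Baf250a* KD (0.47) and 1 and 2 in *Brd9* KD (-0.06), and with Cu 4 and 1, 6 and 2, and 2 and 2. Their untreated median log2 fold changes were 0.25, 0.95 and 0.64, beside 0.03, 0.00 and 0.01 over all genes. *Igf2* (6.29), *Cpa4* (2.76) and *Slc22a18* (2.56) passed the filter without metal only in *Baf250a* KD, where they are high. The counts and medians of neighbours are therefore a description and not support. Among neighbours with a mean of at least 1 CPM, those with the largest changes besides *Usp29* and *Zim1* were in the domain of *Ndn* and beside *Grb10*. *Snrpn*, which encodes a splicing protein, went from 1.92 ± 0.652 CPM (SD, n = 2) in scr to 7.86 ± 0.593 in *Baf180* KD (log2 fold change 2.05, edgeR adjusted p = 1.20e-04) and 6.81 ± 1.24 in *Baf250a* KD (1.83, edgeR adjusted p = 8.77e-05). *Peg12*, a small paternally expressed gene, went from 1.61 ± 0.237 to 4.97 ± 0.509 and 4.28 ± 0.404 CPM in these lines and 3.33 ± 0.553 in *Brd9* KD, where it also rose (1.06, edgeR adjusted p = 0.0293). *Ube3a*, a ubiquitin ligase, rose by 0.64, 0.80 and 0.78 in the 3 lines (edgeR adjusted p = 0.0182, 0.00166 and 0.0331). *Cobl*, an actin nucleator next to *Grb10*, rose by 1.25 in *Baf180* KD (edgeR adjusted p = 4.79e-05) and 0.77 in *Baf250a* KD (edgeR adjusted p = 6.82e-04), and its log2 fold change in *Brd9* KD was 0.04 (edgeR adjusted p = 0.893).

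Imprinted genes of other domains, 22 in the list with 21 in the table and 15 tested, were called in both directions without metal. In *Baf180* KD 3 were higher and 5 lower, in *Baf250a* KD 5 higher and 3 lower, and in *Brd9* KD 1 higher and 2 lower, with medians of 0.01, -0.08 and -0.11. Of all genes 41.0%, 57.8% and 29.2% were called there. With Zn 3 of these imprinted genes were higher and 5 lower in *Baf180* KD, 7 and 4 in *Baf250a* KD and 1 and 1 in *Brd9* KD, and with Cu 2 and 1, 5 and 2, and 1 and 1. *Peg10*, a retrotransposon-derived gene, was graded like *Mest* in order: 96.3 ± 2.78 CPM (SD, n = 2) in scr, 170 ± 11.1 in *Brd9* KD, 243 ± 26.5 in *Baf180* KD and 541 ± 33.1 in *Baf250a* KD. It rose by 0.83 (edgeR adjusted p = 8.60e-04), 1.32 (edgeR adjusted p = 2.80e-06) and 2.46 (edgeR adjusted p = 9.38e-10). *Dcn*, a matrix proteoglycan that is also abundant in fibroblasts, rose by 2.44 in *Baf180* KD (edgeR adjusted p = 1.22e-05) and by 3.70 in *Baf250a* KD (edgeR adjusted p = 5.79e-09), from 1.98 CPM to 10.7 and 25.7. *Igf2r*, the receptor that clears IGF2, fell by 0.93 in *Baf180* KD (357 to 190 CPM, edgeR adjusted p = 2.80e-05) and by 0.43 in *Brd9* KD (edgeR adjusted p = 0.0104), and its log2 fold change in *Baf250a* KD was -0.11 (edgeR adjusted p = 0.358). *Commd1* fell by 0.70, 1.00 and 0.66 in *Baf180*, *Baf250a* and *Brd9* KD (edgeR adjusted p = 0.00131, 2.54e-05 and 0.00817). *Zrsr1* and *Peg13* rose in *Baf250a* KD, by 0.77 (edgeR adjusted p = 0.00170) and 0.67 (edgeR adjusted p = 9.64e-04), and did not pass in the other lines.

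Of 18 genes that keep or erase imprints and DNA methylation, 16 were tested. In untreated *Baf180* KD 6 were higher and 1 lower, in *Baf250a* KD 6 higher and 5 lower, and in *Brd9* KD 3 higher and 1 lower, with medians of 0.13, 0.08 and 0.29, where 41.0%, 57.8% and 29.2% of all genes were called. With Zn 4 were higher and 8 lower in *Baf180* KD, 2 and 7 in *Baf250a* KD and 2 and 2 in *Brd9* KD, and with Cu 0 and 2, 1 and 4, and 1 and 1. *Dnmt3a*, a de novo DNA methyltransferase, fell by 0.55, 0.85 and 0.49 (edgeR adjusted p = 0.00321, 4.22e-05 and 0.0142), from 43.1 ± 1.71 CPM (SD, n = 2) in scr to 29.7 ± 0.898, 24.4 ± 1.33 and 30.4 ± 0.372. *Zfp57*, a zinc finger protein that guards methylated imprints, rose by 0.92 in *Baf180* KD (edgeR adjusted p = 0.00126) and 0.47 in *Baf250a* KD (edgeR adjusted p = 0.0194). *Zfp445*, of the same kind, rose by 0.57 and 0.80 there (edgeR adjusted p = 0.0310 and 2.44e-04). *Smchd1*, which silences the inactive X and imprinted clusters, rose by 0.44, 0.31 and 0.73 in the 3 lines (edgeR adjusted p = 0.0173, 0.0467 and 0.00750). *Arid4b* rose by 0.89, 1.00 and 0.91 (edgeR adjusted p = 0.0141, 8.81e-04 and 0.0381), and *Hells*, a remodeler tied to DNA methylation, by 0.62 in *Baf180* KD (edgeR adjusted p = 0.0231) and 0.87 in *Brd9* KD (edgeR adjusted p = 0.0237). DNA methylation and allelic origin were not measured in these libraries.

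The genes whose levels followed a member most closely were found from the Pearson correlation of log2(CPM + 1) over the 12 group means, among 10420 or 10421 genes of at least 5 CPM. They are a description, since the groups share cell lines and libraries. *Car2* (r = 0.945) and *Fndc1* (0.943) were nearest to *H19*, *Ttn* (0.984) and *Serinc5* (0.981) to *Peg3*, and *Trabd2b* (0.996) and *Timp3* (0.993) to *Mest*. Among the members themselves, without *Dlk1* and *Meg3*, the highest value was that of *Mest* with *Grb10* (0.870) and the lowest that of *Peg3* with *Cdkn1c* (-0.828). Both rest on low counts, at most 24 of *Grb10* and 35 of *Cdkn1c* in a library. The highest *Grb10* group, *Baf250a* KD with Zn, includes 3.94 CPM from 2 counts in the shallow library. *H19* and *Peg3*, the most abundant ones, had 0.074.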

How the data were processed

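RNA was depleted of ribosomal RNA and sequenced as strand-specific paired-end libraries. The authors aligned reads to mm10 with STAR, kept unique alignments, and counted reads per gene with featureCounts; versions and the annotation are not given in the sources used here. The deposited counts are whole numbers and not normalized. Deposited tables of the authors' own comparisons (DESeq2 fold changes and p-values) were not used. Groups follow the sample titles, since a treatment label goes against them. 

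From the counts, CPM were scaled by TMM, and edgeR 4.0.16 in R 4.3.3 gave quasi-likelihood tests with its filter on low counts and Benjamini-Hochberg adjustment over all genes tested, called under 0.05. Each KD was tested against scr on 4 libraries, metals on the 6 libraries of a line, and KD lines against each other and differences in response on all 24. Fold changes are log2. The 26 comparisons were repeated with DESeq2 1.42.0, other size factors, no filter beyond 1 count, corrections for GC content and length, other sets of libraries, a replicate block and each library left out. Exact 95% intervals and the limit of a count of 0 (3 counts) cover counting error only. Total counts per library ran from 495778 to 75179394, which sets the precision of low genes. Positions are from GENCODE M21, with 53292 of 55291 symbols matched, and sequences from RefSeq GRCm38.p6.

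The scripts were run on simulated counts with known changes as a check of the code. The members and gene lists were chosen with earlier results of these data known. From each list up to 6 genes are named, those called without metal with a mean of at least 1 CPM, by size of change. The likeness of 2 genes was computed with a pseudocount of 1 for genes of at least 5 CPM. The genes most like *Plagl1* are not reported here.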

Additional observations from a re-analysis of the deposited data

Results flagged for a closer look

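For 7 values, the response to a metal in a KD line differed from that of scr in a direct test over all 24 libraries (edgeR, adjusted p under 0.05). In *Baf180* KD the response to Cu differed by -0.73 for *Peg3* and -1.11 for *Plagl1* on the log2 scale. The response to Zn in the same line differed by -0.53 for *Peg3*, -1.49 for *Plagl1* and 3.89 for *Cdkn1c*. In *Baf250a* KD the response to Zn differed by 3.65 for *Cdkn1c* and -4.58 for *Mest*. As given above, all 7 calls depended on single libraries, and each was lost without untreated scr replicate 2. In scr, *Cdkn1c* had at most 5 and *Mest* at most 8 counts in a library, so the sizes of their differences are no bounds. Groups hold 2 libraries, so a library that stands apart within its group could not be tested for.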

How the results depend on the processing

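The 65 member calls of the reported tests were refitted under other settings or without 1 library, where these apply, which gave 1180 values. Of these 1055 kept direction and call, 124 were no longer called and 1 turned, *Mest* with Zn in *Baf250a* KD at 0.317 without its Zn replicate 1 and -0.683 without its Zn replicate 2. Many of the 1180 values come from tests over all 24 libraries, refitted without a library of a group that was not compared. Such a library enters the comparison only through the shared fit. The share of values kept is therefore not a measure of how stable the calls are. Values that were not called are not counted here. Refits in which a called member no longer passed the filter gave no value and are not counted either. Examples are *Mest* in untreated *Brd9* KD without either of its libraries and *Cdkn1c* in *Baf250a* KD with Zn without replicate 1. Counts of members called that moved by over 1.5 times were as follows, with the reported count in brackets. With all genes of at least 1 count they were 2 for Zn in *Baf180* KD (0), 2 for Cu in *Brd9* KD (1), 1 for Cu and 3 for Zn in scr (0 each), and for differences in response 1 for Cu in *Baf250a* KD (0), 5 for Zn in *Baf250a* KD (2), 1 for Cu (0) and 2 for Zn (0) in *Brd9* KD. With DESeq2 they were 1 for Zn in *Baf180* KD, 0 for Zn in *Baf250a* KD (1), 2 for Cu in *Brd9* KD, 1 for Cu and 1 for Zn in scr, and for responses 1 for Cu in *Baf180* KD (2) and 1 for Cu in *Baf250a* KD. DESeq2 also called 4 (5), 4 (5) and 3 (4) members in untreated *Baf180*, *Baf250a* and *Brd9* KD against scr, and with Zn 4 (6) in *Baf250a* and 2 (3) in *Brd9* KD. With all 24 libraries they were 0 for Zn in *Baf250a* KD, and 1 for Cu and 3 for Zn in scr; with 12 libraries 1 for the Cu response of *Baf180* KD and 1 for the Zn response of *Baf250a* KD; with untreated libraries 2 for *Baf180* against *Brd9* KD (4); with RLE size factors 1 for the Cu response of *Baf180* KD. With the GC and length correction, alone or with the block, they were 1 for the Cu and 1 for the Zn response (3) of *Baf180* KD and 0 for the Zn response of *Baf250a* KD. The replicate block gave 2 for Zn in *Baf180* KD (1 with the correction) and 1 for the Zn response of *Brd9* KD, and among the KD against scr calls ended that of *H19* in untreated *Baf180* KD (edgeR adjusted p = 0.0733). Same-numbered libraries correlated at -0.449 to 0.575 between treatments of a line and -0.529 to 0.388 between KD and scr, so the numbers were not taken as pairs, though within *Baf180* KD all 3 correlations were positive. The causes were not tested.

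Without each library in turn, counts against scr were 4 to 5, 4 to 6 and 1 to 4 without metal (*Baf180*, *Baf250a*, *Brd9* KD), 2 to 5, 3 to 7 and 0 to 3 with Cu, and 4 to 5, 3 to 6 and 1 to 3 with Zn. For Cu and Zn within lines they were 0 to 3 and 0 to 0 in *Baf180* KD, 0 to 1 and 0 to 1 in *Baf250a* KD, 0 to 2 and 0 to 0 in *Brd9* KD, and 0 to 1 and 0 to 2 in scr. Between KD lines they were 5 to 5, 3 to 4 and 7 to 7, and for responses 0 to 2, 0 to 4, 0 to 0, 0 to 4, 0 to 0 and 0 to 1. Where this leaves a group with 1 library, it is assumed to vary like the others. *Cdkn1c*, *Grb10*, *Ndn* and, outside *Baf250a* KD, *Mest* are limited by counts of at most 59.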
